A study of Mus musculus with 12 samples.

Results

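The genes described here encode the nuclear subunits of the mitochondrial respiratory chain and of ATP synthase. They were chosen by symbol alone, as Sdha to Sdhd, every symbol that begins with Uqcr, Atp5 or Cox followed by a digit from 4 to 8, and the symbols that join Nduf, one of the letters a, b, c, s and v, and a digit. After 6 symbols with -ps in the name were left out, 84 of the 52535 gene symbols in the files were members. They were grouped into complex I (35 members), complex II (4), complex III (8), complex IV (20) and complex V, the ATP synthase (17). The rule uses no measured value, although it was written with earlier results of these data known.

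Complexes I and II pass electrons from NADH and from succinate to ubiquinone, complex III hands them to cytochrome c, and complex IV passes them on to oxygen. Complexes I, III and IV pump protons across the inner mitochondrial membrane, and complex V lets them flow back through a rotating ring of c subunits to make ATP. Most subunits are encoded in the nucleus and imported, while a small core is encoded in mitochondrial DNA, and proliferating thymocytes and T-cell leukemias use this system together with glycolysis.

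Messenger RNA was measured in 3 mouse T-cell acute leukemia/lymphoma (T-ALL) lines, numbered 240, 242 and 352. Each was sequenced once as a control, placebo-treated per the study, and once after PKF118-310, an inhibitor of the contact between β-catenin and its Tcf partners that the study applied at 1 µM for 20 h. The 12 files hold the 2 sequencing lanes of 6 libraries, so each group holds 3 libraries. That follows the labels, while a legend in the study describes the paired files as cultures kept apart, and the samples per group would then differ. All 6 libraries, controls included, have the genotype Akt2;Dlx5 double transgenic and were grown in IMDM with FBS, and the age of the animals was not given. Both transgenes are driven by the Lck promoter, active in immature T cells, and each line comes from the lymphoma of 1 mouse, so that line and animal cannot be told apart.

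Total counts ran from 604984 in the treated library of line 242 to 13766638 in that of line 352. Mitochondrially encoded genes held 11.8% of counts in the treated library of line 242 and 1.84 to 3.10% in the other 5. All 11 T-cell markers had counts in 5 libraries and 10 in the treated library of line 242, where Ptcra was at 0. In lines 240, 242 and 352 the markers summed to 0.517, 0.462 and 0.322% of counts in controls and to 0.524, 0.215 and 0.216% after PKF118-310. The 5 B-cell markers summed to at most 19 counts in 5 libraries and to 45 in the treated library of line 242, 43 of them from Pax5, with Cd79b at 0 there. Erythroid markers summed to at most 2 counts in any library, and of the 6 myeloid markers Lyz2 and S100a8 were at 0 throughout. Counts of the 2 lanes differed with a chi-square per gene of 2.01 (control) and 2.05 (treated) in line 352 and of 0.982 to 1.02 in the other lines. Myeloid markers summed to 29 to 597 counts, most of them from Itgam, and stromal and epithelial markers to 43 to 963 counts, most of them from Pecam1 except after treatment in line 242. The part of any of these values in the results was not tested. In bulk RNA, fewer cells of a type and less RNA per cell cannot be told apart.

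Nearly all members were measured in these cells. In the comparison of 3 lines 78 of 84 members passed the filter on low counts, and 79 did in lines 240 and 352 alone. The 6 that did not pass in 3 lines were the tissue-restricted isoforms Cox4i2, Cox7a1, Cox7b2, Cox8b and Cox8c and the hypoxia-induced paralog Ndufa4l2, of which Cox7b2, Cox8b and Cox8c had 0 counts in all 6 libraries. Levels are given as CPM, the usual scaling of counts to a common library total. A count of 0 allows up to 3 counts, which is 4.96 CPM in treated line 242 but 0.218 CPM in treated line 352, so that a gene at 0 says less in line 242.

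Levels of different genes were compared per length, as CPM per kilobase of exon (RPKM), over the 3 control libraries. The median member stood at 44.0 RPKM in complex I, 78.5 in complex II, 104 in complex III, 99.0 in complex IV and 78.1 in complex V. Atp5b, the catalytic β subunit of ATP synthase, was the highest member at 589 ± 179 RPKM (SD, n = 3). Within complex IV, Cox6b1, on the side facing the intermembrane space, was highest at 230.2 ± 21.9 RPKM (SD, n = 3), and the muscle isoform Cox6a2 was the lowest tested member at 6.38 ± 8.80 RPKM. In complex I the accessory membrane subunit Ndufa1 led with 112 ± 5.46 RPKM, while Ndufb2, also of the membrane arm, stood at 1.39 ± 1.59 RPKM. The Ndufb2 gene shares its span with Braf and Gm16272 on the other strand and with Gm42420 on its own.

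Complex II ran from 37.7 ± 0.630 RPKM for the membrane anchor Sdhc to 116 ± 21.6 RPKM for the other anchor, Sdhd. Complex III ran from 34.0 ± 21.4 RPKM for the small subunit Uqcrq to 135 ± 16.3 RPKM for the hinge protein Uqcrh. In complex V the lowest was Atp5s, which encodes a factor outside the core enzyme, at 4.59 ± 2.39 RPKM (SD, n = 3 for each of these values). With the length of the principal transcript in place of all exons, the medians rose to 74.2, 112, 122, 207 and 203 RPKM for complexes I to V. Ndufb9, Sdha and Cox4i1 then led complexes I, II and IV, whereas Uqcrh, Atp5b and the lowest member of each complex stayed as named.

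**Figure D1:**
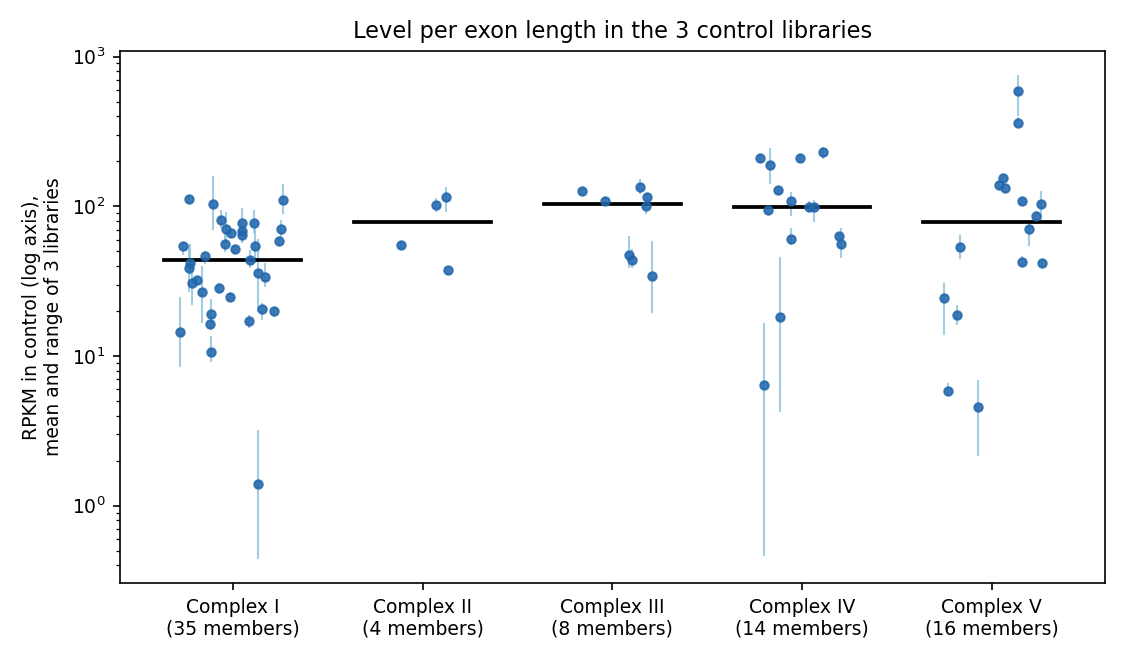
Level of each tested member in the control libraries, in RPKM on a log axis, by complex. Points are means of the 3 lines, bars run from the lowest to the highest library and black lines are medians. Atp5b at 589 RPKM stands above all others, and Ndufb2 at 1.39 RPKM is the lowest.

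Counted together, the members took a similar share of each control library. Their share was 1.22% of all counts in line 240, 1.18% in line 242 and 1.18% in line 352 (mean 1.19%, SD 0.0254, n = 3). After PKF118-310 it was 1.33% in line 240 and 1.21% in line 352, both above their own control, and 0.653% in line 242, below every other library. The 95% Wilson intervals were 1.32 to 1.34% against 1.21 to 1.23% in line 240 and 0.633 to 0.674% against 1.17 to 1.19% in line 242. These intervals cover counting error only. The mean over the 3 treated libraries was 1.06% (SD 0.360, n = 3), and the groups overlapped.

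Complex V supplied the largest part of the member counts in every library, from 43.0% in the control of line 352 to 54.2% in the control of line 242. Atp5b alone supplied 14.7 to 25.7%. Complex I, with 35 genes, supplied 17.5 to 24.4%. In the treated library of line 242 each complex took a smaller share of all counts than in its control, with ratios of 0.631 for complex I, 0.596 for complex II, 0.595 for complex III, 0.602 for complex IV and 0.506 for complex V. In lines 240 and 352 the same ratios lay between 0.986 and 1.14.

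**Figure D2:**
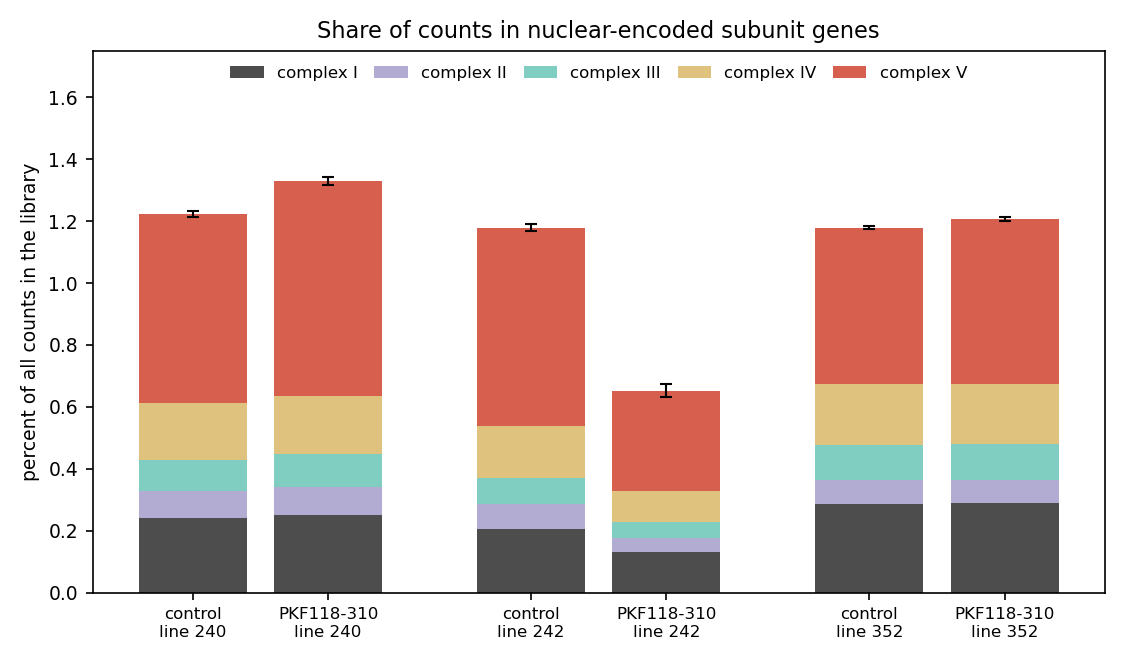
Percent of all counts in each library that fell in member genes, stacked by complex, with control and PKF118-310 side by side for each line. Error bars are 95% Wilson intervals of the total and cover counting error only. The treated library of line 242 stands at 0.653%, and the other 5 libraries at 1.18 to 1.33%.

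The first comparison asked which members followed PKF118-310 across all 3 lines. No single member passed the test. The median log2 fold change of the 78 members was -0.15, beside 0.00 over all 10331 genes tested, with medians of -0.12, -0.15, -0.17, -0.17 and -0.20 in complexes I to V. Under edgeR's quasi-likelihood test, 0 of 10331 genes (0%) and 0 of 78 members had a Benjamini-Hochberg adjusted p below 0.05. At an unadjusted p below 0.05 there were 570 genes (5.52%) and 3 members, Ndufa6, Ndufv3 and Cox6a1, each lower in the treated than in the control library of every line. DESeq2 called 45 genes (0.436%) and 0 members, and limma voom with sample weights 801 genes (7.75%) and 2 members, Ndufa6 and Ndufv3. The 95% interval of the change lay within 2-fold for 89.7% of members and 60.5% of all genes.

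The 3 lines did not move alike, which the shared fit does not show. Treated over control, the median log2 ratio was 0.11 for line 240, -0.68 for line 242 and 0.01 for line 352, against medians of 0.00 over all genes in each line. In line 242, 73 of 78 members were lower after PKF118-310, where 50% of all genes were, and 54 were lower by more than 0.5, where 26.1% of all genes were. In line 240, 24 of 78 members were lower, where 49.5% of all genes were, and in line 352 37 were lower, where 50.2% were. Lower by more than 0.5 were 3 members in line 240 (11.8% of all genes) and 1 in line 352 (10.4%), and higher by more than 0.5 were 2 (10.6%) and 1 (8.37%). Line 242 gave the lowest of the 3 ratios for 70 of 78 members and for 44.1% of all genes. Each line has 1 library per group, so these ratios have no test.

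The low values of line 242 spanned the complexes. Its median log2 ratio was -0.59 in complex I, -0.63 in complex II, -0.63 in complex III, -0.66 in complex IV and -0.80 in complex V. All members of complexes II, III and V were lower there, as were 33 of 35 in complex I and 11 of 14 tested in complex IV. The median member of line 242 had 285 control counts and 31 treated counts. There the 95% counting interval of the ratio lay below 0 for 47 of 78 members and above 0 for 3. In line 240 it lay below 0 for 6 and above for 19, and in line 352 for 16 and 18. These intervals cover counting error only and were not computed over all genes. The 3 above 0 in line 242 were Ndufb2, Cox6a2 and Cox6b2, with 9, 1 and 15 control counts and 18, 5 and 8 counts in the shallower treated library. The same library held the fewest counts, the largest mitochondrially encoded share and a T-cell marker sum of 0.215%, below its control's 0.462%. The part of these in the lower ratios was not tested.

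**Figure D3:**
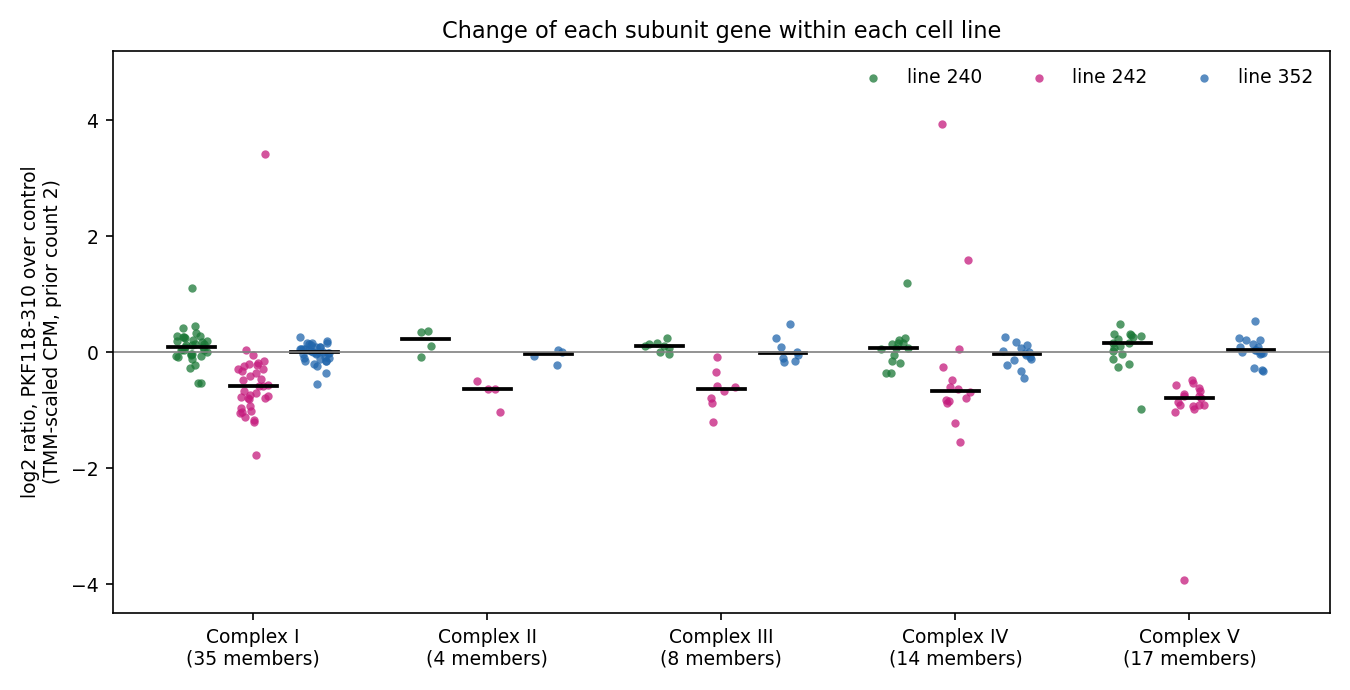
Log2 ratio of PKF118-310 over control for each of the 78 tested members in each line, by complex, from CPM scaled by trimmed mean of M values (TMM) with a prior count of 2. Each point is 1 gene and black lines are medians. Line 242 lies below 0 in every complex, with medians from -0.59 to -0.80, and the other lines lie near 0. The lowest point, Atp5s in line 242, rests on 0 treated counts.

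The second comparison left out line 242 and asked what lines 240 and 352 shared. The members stayed near 0 as a whole, and 6 of 79 passed the test. Atp5g1, a c subunit gene, and Uqcrq, a small complex III subunit, rose, while Ndufa6 and Ndufv3 of complex I and Cox6a1 and Cox7a2l of complex IV fell. Over all genes edgeR called 1285 of 11760 (10.9%), 589 higher (5.01%) and 696 lower (5.92%), so the 2 members that rose and the 4 that fell are not more than the share of all genes. The median log2 fold change of members was 0.06, beside -0.01 over all genes, and it was 0.04, 0.05, 0.04, 0.03 and 0.10 in complexes I to V. The 95% interval lay within 1.5-fold for 69 of 79 members (87.3%), against 45.8% of all genes, and within 2-fold for 77 (97.5%), against 72.3%. Members were also measured more precisely, with a median standard error of 0.11 against 0.15. The fit rests on 2 pairs of libraries, and DESeq2 with the same design called 265 genes (2.25%) and 0 members. Without the block by line edgeR called 0 members, and with the counts of line 352 halved it called 3.

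**Figure D4:**
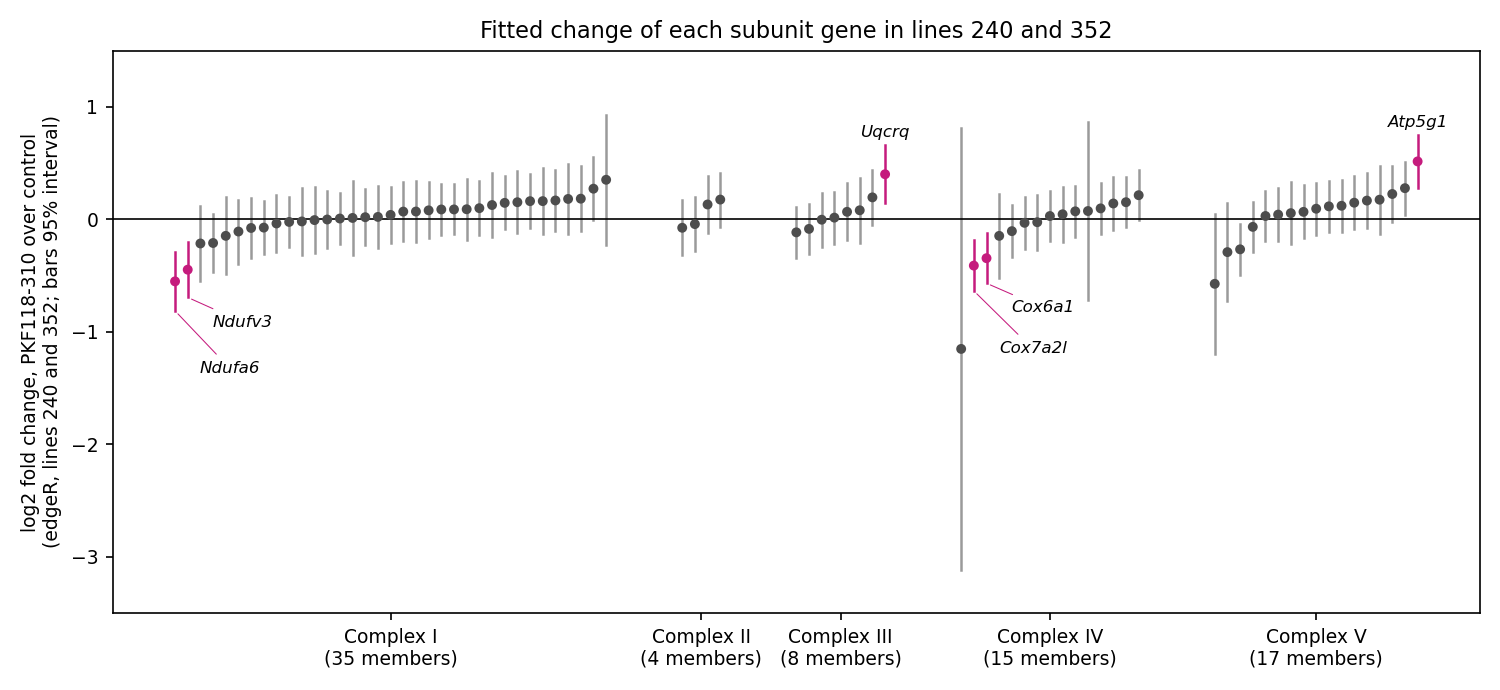
Fitted log2 fold change of PKF118-310 over control in lines 240 and 352 for each of 79 tested members, by complex, from edgeR. Bars are 95% intervals, and the members with an adjusted p below 0.05 are coloured and named. Most intervals cross 0, with Atp5g1 at 0.52 and Ndufa6 at -0.55 the farthest of the named genes on either side.

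The core complex I genes named here did not pass the test. Values below are TMM-scaled CPM for lines 240, 242 and 352 in that order. Ndufv1, which binds NADH and FMN, stood at 113, 102 and 134 CPM in control and at 129, 52.0 and 135 CPM in treated libraries. Ndufs1, an iron-sulfur subunit, stood at 173, 162 and 148 CPM in control and at 211, 126 and 151 CPM after treatment. For both genes the treated library of line 242 was the lowest of the 6. In lines 240 and 352 their log2 fold changes were 0.09 ± 0.11 and 0.15 ± 0.11 (SE).

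Both complex I genes that fell in lines 240 and 352 encode accessory subunits of the matrix arm. Ndufa6 (mm10, chr15:82350139-82354291, minus strand) stood at 51.1, 35.2 and 109 CPM in control and at 35.1, 31.6 and 74.4 CPM in treated libraries. Each treated library was below its own control, although the groups overlapped because line 352 was higher throughout. Its log2 fold change was -0.55 ± 0.12 (SE) in lines 240 and 352 (edgeR adjusted p = 0.0131) and -0.46 ± 0.16 over 3 lines (adjusted p = 0.842). Ndufv3 (chr17:31520115-31531326, plus strand), of the NADH-binding module, stood at 128, 52.8 and 76.2 CPM in control and at 87.7, 44.5 and 59.3 CPM after treatment. It too was below its control in every line, and the groups overlapped. Its log2 fold change was -0.45 ± 0.11 (SE, edgeR adjusted p = 0.0260) in lines 240 and 352 and -0.40 ± 0.15 over 3 lines (adjusted p = 0.842).

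Ndufb2, of the membrane arm, was the only tested member higher after PKF118-310 in all 3 lines, where 17 of 78 were lower in all 3. Of all 10331 genes, 1640 were higher and 1752 lower in all 3. It stood at 2.48, 2.83 and 18.1 CPM in control and at 5.74, 33.4 and 20.4 CPM in treated libraries. The 33.4 CPM rest on 18 counts. Its change did not pass in 3 lines (1.42 ± 0.72 on the log2 scale, SE, edgeR adjusted p = 0.842) or in lines 240 and 352 (0.35 ± 0.27, adjusted p = 0.448). Ndufa1, the highest complex I member per length, stood at 48.9, 44.3 and 47.1 CPM in control and at 54.2, 27.8 and 43.7 CPM after treatment, with only line 242 far from its control.

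The 4 succinate dehydrogenase genes of complex II did not pass either test. Sdha, the flavoprotein, stood at 467, 419 and 377 CPM in control and at 440.1, 271 and 379 CPM in treated libraries. Sdhb, the iron-sulfur subunit, stood at 130.5, 122 and 117 CPM in control and at 168, 77.9 and 112 CPM after treatment. The treated values of both genes included the lowest of the 6 libraries, in line 242. Sdhc stood at 121, 122 and 125 CPM in control and at 130.4, 59.4 and 107 CPM after treatment, again lowest in treated line 242. Sdhd, the other membrane anchor, stood at 151, 165 and 113 CPM in control and at 192, 117 and 116 CPM after treatment, with the treated library of line 242 as low as both libraries of line 352. Their log2 fold changes in lines 240 and 352 ran from -0.07 to 0.18.

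In complex III 1 of 8 members passed in lines 240 and 352. Uqcrq (chr11:53427922-53430831, minus strand) stood at 44.2, 35.5 and 107 CPM in control and at 52.6, 27.8 and 151 CPM in treated libraries. Treated was above control in lines 240 and 352 and below it in line 242, and both libraries of line 352 were above the other 4. The 95% counting interval of its ratio lay above 0 in line 352 (1453 control and 2164 treated counts). In line 240 it did not (178 and 165 counts). The log2 fold change was 0.40 ± 0.12 (SE, edgeR adjusted p = 0.0475) in lines 240 and 352 and 0.22 ± 0.20 over 3 lines (adjusted p = 0.868). Uqcrfs1, the Rieske iron-sulfur protein that carries electrons out of ubiquinol, stood at 144, 143 and 156 CPM in control and at 140.0, 94.7 and 139 CPM after treatment. Uqcrc1, a core protein on the matrix side, stood at 172, 159.7 and 213 CPM and then at 184, 92.8 and 206 CPM. Uqcrh, the hinge protein next to cytochrome c1, stood at 189.5, 162 and 150.4 CPM and then at 189, 102 and 136 CPM. For these 3 genes line 242 held the lowest treated value, and their changes in lines 240 and 352 ran from -0.11 to 0.02 on the log2 scale, none past the test.

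Complex IV had 2 members that fell in lines 240 and 352. Cox6a1 (chr5:115345642-115348981, minus strand), the isoform of subunit VIa found in most tissues, stood at 158, 139 and 144 CPM in control and at 122, 77.9 and 115 CPM in treated libraries. Each treated library was below its own control. The log2 fold change was -0.34 ± 0.10 (SE, edgeR adjusted p = 0.05, just under the threshold before rounding) in lines 240 and 352 and -0.48 ± 0.17 over 3 lines (adjusted p = 0.842). Cox7a2l (chr17:83501919-83514333, minus strand), which joins complexes III and IV into supercomplexes, stood at 160.0, 143 and 134 CPM in control and at 125, 148 and 98.8 CPM after treatment. It was below control in lines 240 and 352 and close to it in line 242, where most members were low. Its log2 fold change was -0.41 ± 0.10 (SE, edgeR adjusted p = 0.0248) in lines 240 and 352 and -0.27 ± 0.16 over 3 lines (adjusted p = 0.843).

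The other complex IV genes named here did not pass. Cox4i1, the common isoform of subunit IV, stood at 308, 326 and 347 CPM in control and at 325, 202 and 321 CPM in treated libraries. Cox5a, a subunit on the matrix side, stood at 138, 135 and 127 CPM and then at 152, 89.1 and 143 CPM. Both were lowest in the treated library of line 242. Cox6b1 stood at 176, 167 and 146 CPM in control and at 183, 90.9 and 147 CPM after treatment. Cox8a, a small membrane subunit, stood at 109.9, 87.1 and 152 CPM and then at 97.0, 29.7 and 148 CPM, where the 29.7 CPM rest on 16 counts. Its log2 ratio of -1.54 in line 242 was among the lowest of any member. Ndufa4, first assigned to complex I and now placed in complex IV, stood at 124, 140.2 and 128 CPM in control and at 138, 77.9 and 128 CPM after treatment.

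In complex V the catalytic subunits Atp5a1 and Atp5b, the α and β subunits of the F1 head, did not pass. Atp5a1 stood at 1099, 1241 and 1071 CPM in control and at 1228, 663 and 1044 CPM in treated libraries. Atp5b stood at 2603, 3196 and 1689 CPM in control and at 3152, 1615 and 1790.2 CPM after treatment. Both were lowest in the treated library of line 242. In line 242 the log2 ratio of Atp5b was -0.99, with a counting interval of -1.09 to -0.88. Atp5s stood at 14.1, 4.4 and 9.52 CPM in control and at 7.02, 0 and 7.68 CPM after treatment, where line 242 had 14 control counts and 0 treated counts, for which no fold is given. Atp5sl, named for its likeness to Atp5s, is also no core subunit and was counted here by its symbol. It stood at 16.9, 16.4 and 20.1 CPM in control and at 14.7, 9.28 and 15.9 CPM after treatment. Its value was lower in every line, without passing (log2 fold change -0.39 ± 0.27, SE, edgeR adjusted p = 0.843 over 3 lines).

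Atp5g1, Atp5g2 and Atp5g3 encode the same mature c subunit of the proton-driven ring with different import sequences, and they did not move together. Atp5g1 (chr11:96068852-96075670, minus strand) stood at 88.8, 108 and 78.9 CPM in control and at 125, 70.5 and 115 CPM in treated libraries. Its value was higher after PKF118-310 in lines 240 and 352 and lower in line 242, with a log2 fold change of 0.52 ± 0.11 (SE, edgeR adjusted p = 0.0100) in lines 240 and 352 and 0.20 ± 0.27 over 3 lines (adjusted p = 0.913). Atp5g2 (chr15:102662864-102672352, minus strand) stood at 172, 136 and 213 CPM in control and at 144, 72.4 and 177 CPM after treatment. It was lower in every line, without passing in lines 240 and 352 (-0.27 ± 0.10, SE, edgeR adjusted p = 0.125) or over 3 lines (-0.44 ± 0.19, adjusted p = 0.842). Atp5g3 (chr2:73908447-73911326, minus strand) stood at 283, 293 and 287 CPM in control and at 351, 184 and 342 CPM after treatment, with a log2 fold change of 0.28 ± 0.11 (SE, edgeR adjusted p = 0.128) in lines 240 and 352.

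Taken as shares of the counts of these 3 genes, which do not depend on library scaling, Atp5g2 made up 31.6, 25.3 and 36.8% in the controls of lines 240, 242 and 352. After PKF118-310 it made up 23.2, 22.2 and 28%. The share was lower in every line, and the 95% Wilson intervals of control and treated did not overlap in lines 240 (29.7 to 33.6% and 21.3 to 25.1%) and 352 (35.7 to 37.9% and 27.0 to 28.9%). In line 242 they did (23.3 to 27.4% and 16.7 to 28.9%). These intervals cover counting error within 1 library each and are no test of the treatment. Atp5g1 went from 16.4, 20.2 and 13.6% to 20.2, 21.6 and 18.1% in the same order. Shares of counts also depend on gene length. Per kilobase of exon, Atp5g1 took 7.23, 9.29 and 5.84% in controls and 9.35, 10.1 and 8.17% after treatment.

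**Figure D5:**
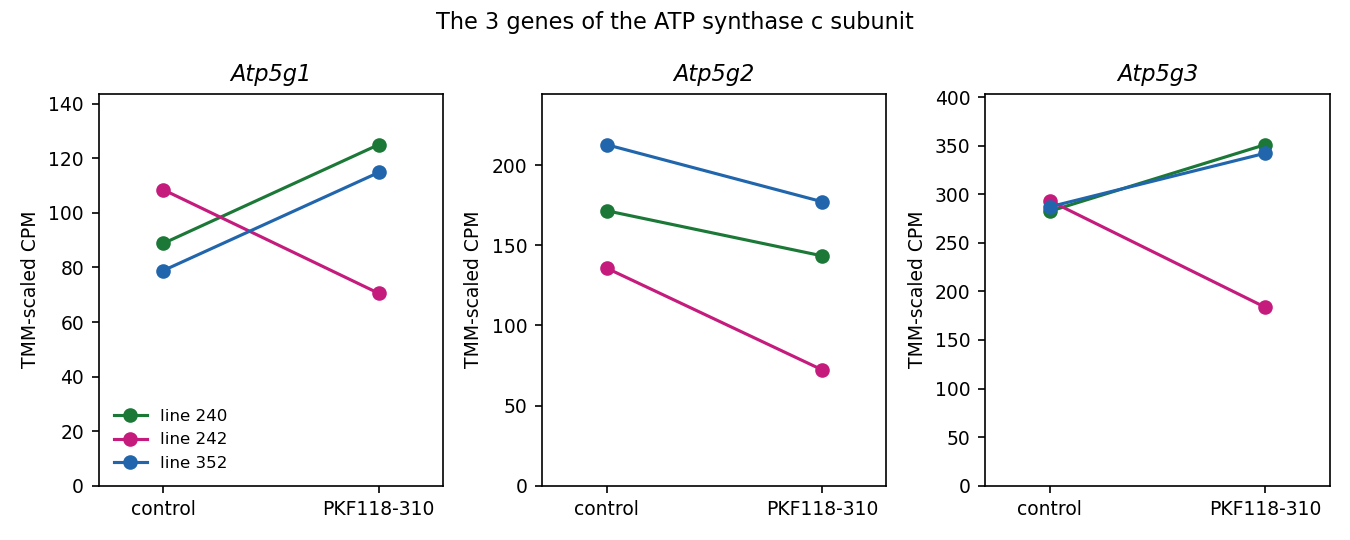
TMM-scaled CPM of the 3 c subunit genes in control and PKF118-310 libraries, with 1 line per cell line and each vertical axis starting at 0. Atp5g1 and Atp5g3 are higher after treatment in lines 240 and 352 and lower in line 242, whereas Atp5g2 is lower in all 3.

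Of the paralog pairs in complex IV, the widely expressed isoform held nearly all counts in most libraries. Cox4i2 had 1 count in 1 library, the treated one of line 352, where Cox4i1 had 4602. Ndufa4l2 had 1 count in all, and the muscle isoform Cox7a1 had 1 to 20 counts. Line 352 was the exception for Cox6b2, the testis isoform (chr7:4751792-4753094, minus strand), which took 25.8% of the counts of the Cox6b pair in the control and 23.8% after treatment. The same share was 2.74 and 2.39% in line 240 and 2.74 and 14% in line 242, the last resting on 8 counts. Per kilobase of exon, Cox6b2 took 18.2 and 16.6% in line 352, and with principal transcript lengths 26.9 and 24.8%. Cox6a2 (chr7:128205435-128206387, minus strand) took 7.24 and 7.72% of the Cox6a counts in line 352, 0.935 and 3.03% in line 240 and 0.226 and 10.6% in line 242, where the treated value rests on 5 counts. The span of Cox6a2 overlaps Itgad on the other strand, a myeloid integrin gene. Among the Cox7a genes, Cox7a2l took 55.0, 54.9 and 53.6% of counts in controls and 47.3, 59.7 and 44.1% in treated libraries, lower in the 2 lines where it fell. Per kilobase of exon it took 43.7, 43.7 and 42.3% in controls and 36.1, 48.3 and 33.5% after treatment. On that scale Cox7a2 held the larger share in every library. Cox7a2 stood at 129, 117 and 115 CPM in control and at 136, 98.4 and 125 CPM after treatment. Cox7b stood at 152, 139 and 105 CPM in control and at 170.0, 59.4 and 126 CPM after treatment, and its paralog Cox7b2 had no counts.

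The third comparison asked which members differed between the lines. The control and the treated library of a line, from the same animal, served as its replicates. The edgeR test called 550 of 10331 genes (5.32%) and 4 of 78 members. These were Uqcrq, Cox6b2, Ndufa6 and Ndufc2, with adjusted p of 0.0342, 0.0383, 0.0386 and 0.0499, all highest in line 352. Cox6b2 stood at 50.7 and 46.0 CPM in the control and treated library of line 352, against 4.46 to 14.8 CPM in the other 4 libraries. Ndufc2, of the membrane arm, stood at 119.8 and 128 CPM in line 352 and at 63.0, 59.6, 52.2 and 35.3 CPM in control and treated cells of lines 240 and 242. In neither gene, both picked by this test, did line 352 overlap the other lines. Without line 242 the comparison of lines 240 and 352 called 37 of 79 members, beside 44.7% of all genes, and without line 352 it called 0 of 78, beside 209 of 10207 genes (2.05%).

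Of 47 tested assembly factors, which help build the complexes without staying in them, 3 rose and 0 fell in lines 240 and 352, where 5.01% of all genes rose and 5.92% fell. Ndufaf4, a complex I assembly factor, stood at 37.7, 74.5 and 37.3 CPM in control and at 63.5, 31.6 and 58.9 CPM after treatment, higher in lines 240 and 352 and lower in line 242 (log2 fold change in lines 240 and 352 0.69 ± 0.13, SE, edgeR adjusted p = 0.00607). Ecsit, also of complex I assembly, and Tmem70, needed for ATP synthase, rose by 0.51 ± 0.15 (adjusted p = 0.0452) and 0.46 ± 0.13 (adjusted p = 0.0399) on the same scale, on which the changes of the lists that follow are given too. Both were lower in line 242, with log2 ratios of -1.33 and -0.83 that rest on 7 and 16 treated counts. The 31.6 CPM of Ndufaf4 rest on 17. Of 46 assembly factors tested over 3 lines, 28 were lower and 18 higher in line 242, where 50% of all genes were lower. Their median log2 ratio there was -0.27, beside -0.68 for the members, of which 73 of 78 were lower. Among the lists that follow, 17 of 20 genes of pyruvate oxidation and the TCA cycle were lower in line 242 (median -0.61). So were 13 of 16 regulators of respiratory genes (-0.41) and 11 of 20 electron carriers, ubiquinone synthesis genes and associated proteins (-0.19). The differences between these lists were not tested.

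Of 20 tested electron carriers, ubiquinone synthesis genes and associated proteins, 2 rose and 1 fell, beside the same 5.01 and 5.92% of all genes. Cyc1, Ndufab1 and Usmg5 of this list encode subunits too, under symbols that the rule does not take. Higd1a, a hypoxia-induced partner of complex IV, stood at 149, 68.9 and 55.6 CPM in control and at 99.8, 113 and 33.7 CPM after treatment. It was lower in lines 240 and 352, higher in line 242, and fell by 0.66 ± 0.12 in lines 240 and 352 (SE, edgeR adjusted p = 0.00428). Pdss1 and Coq4, of ubiquinone synthesis, rose by 0.79 ± 0.19 (adjusted p = 0.0185) and 1.02 ± 0.30 (adjusted p = 0.0441). Of 20 genes of pyruvate oxidation and the TCA cycle, which feeds electrons to the chain, 1 rose and 1 fell, where 10.9% of all genes were called in either direction. Idh2, the mitochondrial NADP-dependent isocitrate dehydrogenase, stood at 164, 118 and 193 CPM in control and at 133, 61.2 and 122 CPM after treatment, lower in every line (-0.50 ± 0.11, SE, edgeR adjusted p = 0.0149). Suclg1, the α subunit of succinate-CoA ligase, rose by 0.41 ± 0.12 (adjusted p = 0.0411), while its partner Suclg2 had a change of -0.32 ± 0.11 (adjusted p = 0.0709).

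Of 16 tested regulators of respiratory genes, 2 rose and 0 fell in lines 240 and 352, beside 5.01 and 5.92% of all genes. Pprc1, a coactivator of the nuclear respiratory factor NRF1, stood at 67.2, 218 and 131 CPM in control and at 123, 111 and 151 CPM after treatment (0.48 ± 0.14, SE, edgeR adjusted p = 0.0456). Lrpprc, which stabilises mitochondrial mRNA, rose by 0.35 ± 0.10 (adjusted p = 0.0457), and Tfb1m, a methyltransferase of the mitochondrial ribosomal RNA, had a change of -0.87 ± 0.26 (adjusted p = 0.0520). Over all 3 lines edgeR called 0 genes of these 4 lists, with 2 TCA cycle genes and 1 regulator at an unadjusted p below 0.05, all lower. DESeq2 called 0 there and limma voom 4, which were Coq4, Pdss1, Higd1a and Tfb1m. In lines 240 and 352 DESeq2 called 1 gene of the lists, Higd1a, and edgeR without the block by line called 0.

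The 13 subunits encoded in mitochondrial DNA went the other way from the nuclear members in line 242. They took 2.83, 2.69 and 1.71% of counts in the controls of lines 240, 242 and 352 and 2.61, 8.72 and 2.28% after PKF118-310. Their counts were 2.32, 2.29 and 1.45 times those of the nuclear members in controls and 1.97, 13.4 and 1.88 times after treatment. In line 242 all 13 were higher by more than 0.5 on the log2 scale, where 29.5% of all genes and 3 of 78 nuclear members were. In lines 240 and 352 mt-Nd2 and mt-Cytb, of complexes I and III, rose by 0.81 ± 0.22 and 0.79 ± 0.19 (SE, edgeR adjusted p = 0.0314 and 0.0218), and the other 11 did not pass. Of all genes, 5.01% rose there. DESeq2 called neither mt-Nd2 nor mt-Cytb and called mt-Co1 alone, which was lower. Voom called mt-Co1 lower and mt-Nd1, mt-Nd2 and mt-Cytb higher, and edgeR without the block by line called 0. The median log2 ratio of the 13 was 0.23 in line 240 and 0.56 in line 352, and that of mt-Nd2 was 0.23 and 1.40. Nuclear copies of mitochondrial genes exist, and how reads with several matches were counted is not given in the sources used here.

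Promoter windows were sought for the 6 members called in lines 240 and 352 and for the c subunit genes. Respiratory genes are known for sites of a few widely expressed factors. Windows of 300 bases, 250 before and 50 after the start, were available from RefSeq (GRCm38.p6) for 69 of 84 members and for 17492 protein-coding genes in all. They were searched on both strands for the letters GCATGCGC (NRF1), CCGGAAG (ETS factors such as GABP), AAGATGGC (YY1) and TGACGTCA (CRE), which do not hold each other. The 30 bases around each match before the start are given below, on the minus strand, with the matching letters in capitals, joined where matches on both strands overlap.

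Ndufa6, NRF1 letters, chr15:82354356-82354385: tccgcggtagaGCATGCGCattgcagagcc
Cox6a1, NRF1 letters, chr5:115349101-115349130: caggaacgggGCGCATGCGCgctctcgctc
Cox6a1, ETS letters, chr5:115348959-115348988: cgtccccatttccgCTTCCGGcgcgccggt
Atp5g2, NRF1 letters, chr15:102671070-102671099: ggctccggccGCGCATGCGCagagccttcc

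The match lay 83 to 76 bases before the start in Ndufa6, 162 to 153 and 16 to 10 bases in Cox6a1 and 42 to 33 bases in Atp5g2. The RefSeq starts of Cox6a1 and Atp5g2 lie inside the span that the files give for these genes. So do the ETS letters of Cox6a1 and the NRF1 letters of Atp5g2, which come before the start by RefSeq only. The windows of Ndufv3, Cox7a2l, Atp5g1 and Atp5g3 held none of these letters before the start. For Uqcrq no window was available, so its promoter was not read. Over all windows the NRF1 letters occurred in 10 of 69 members (14.5%) and in 3.61% of all genes, the YY1 letters in 10 members (14.5%) and 3.22%, the ETS letters in 15 members (21.7%) and 11.9%, and the CRE letters in 4 members (5.80%) and 2.34%. At least 1 of the 4 occurred in 33 of 69 members (47.8%) and in 19.0% of all genes. The YY1 letters lay after the start in 9 of the 10 members that held them (90%), against 51.4% of the genes that did.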

How the data were processed

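Per the labels, poly(A) RNA of 6 libraries was made into stranded libraries. The authors deposited raw counts per gene, 1 file per library and lane. The submitters' notes name HISAT2, HTSeq, edgeR and mm10, and the study's methods name TopHat. For versions and the strand setting, the sources used here give nothing. Lanes were summed. Genes kept by filterByExpr were tested in R 4.3.3 with edgeR 4.0.16 (TMM, quasi-likelihood F test, Benjamini-Hochberg over all genes tested, threshold 0.05) with cell line as a block, over 3 lines and over lines 240 and 352. The labels' line numbers pair the libraries, since each line comes from 1 animal. Deviations from the group means correlated at 0.67, 0.30 and 0.79 across genes in lines 240, 242 and 352, and at 0.86, 0.023 and 0.67 across members. P-values rest on the spread left after line and group are fitted, moderated across genes. They do not rest on repeat libraries of a line and group, which the labels do not give. Alternatives were DESeq2 1.42.0, limma 3.58.1 voom, other scalings and filters, single lanes, thinning, no block and leaving out lines.

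Members and lists were chosen with earlier results of these data known. Genes were named by rule. From each complex it took the 3 members with the smallest p over 3 lines, those called in lines 240 and 352, core subunits, paralogs and the extremes per length. From each list it took 3 genes. A core subunit it took is not reported by name. Ndufc2, Ndufb9, Cyc1, Ndufab1, Usmg5, mitochondrially encoded genes and the genes that overlap members fall outside it and were named after their values were seen. RPKM used GENCODE vM21 exon lengths, for 83 of 84 members. The scripts were tested on simulated data.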

Additional observations from a re-analysis of the deposited data

Results flagged for a closer look

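The share of counts in member genes moved in opposite directions in different lines, and the difference between lines was not tested, since each line has 1 library per group. The ratio of the share after PKF118-310 to that in control was 1.09 for line 240, 0.554 for line 242 and 1.02 for line 352. By complex, in the same order of lines, the ratios were 1.04, 0.631 and 1.01 for complex I, 1.06, 0.596 and 0.991 for complex II, and 1.05, 0.595 and 1.02 for complex III. They were 1.01, 0.602 and 0.986 for complex IV and 1.14, 0.506 and 1.05 for complex V. For the 13 mitochondrially encoded subunits they were 0.923, 3.24 and 1.33. The treated library of line 242 is the shallowest of the 6.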

How the results depend on the processing

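Of the alternative values of the counts and medians that answer a comparison, 60 stayed near the value reported or on its side of the threshold, 7 counts were higher, 7 lower and 1 mean share moved. Members called over 3 lines numbered 0, with limma voom 2, and 0 to 6 with each line left out in turn, the 6 without line 242. For all genes that count was 0, with DESeq2 45, with voom 801 and without a filter 312.

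Members called in lines 240 and 352 numbered 6, with DESeq2 0, with libraries thinned to the smallest total 0, with at least 5 CPM in both groups 2, with lane 2 alone 3 and, added after seeing the data, with the counts of line 352 halved 3. Without the replicate block, so ignoring the pairing by line, it was 0, and over 3 lines it was 0 with and without the block. All genes called there numbered 1285, with these settings 265, 372, 500, 753, 635 and, without the block, 0. Of 12 alternatives, Atp5g1 was called in 9, Ndufa6 in 8, Cox7a2l in 7, Ndufv3 in 6, Uqcrq in 5 and Cox6a1 in 4. Leaving out a line here leaves no residual degrees of freedom, so the per-line ratios stand in its place.

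Members that differed between lines numbered 4, with DESeq2 7, with voom 27, without a filter 20, with lane 1 alone 7, and 0 to 37 with a line left out. All genes called there numbered 550, with these settings 1665, 4376, 3009, 847 and 209 to 5257. The mean share in controls moved from 1.19 to 1.23% with mitochondrially encoded genes left out of the total. The fold change of Sdhb over 3 lines turned from -0.07 to 0.11 with voom and ran from -0.36 to 0.13 with a line left out, the latter without line 242. That of Uqcrq turned from 0.22 to -0.050 when thinned and ran from -0.029, without line 352, to 0.40. The cause of these moves was not tested beyond the fewer counts or lines that some settings hold. With 604984 counts, the treated library of line 242 limits what its low members can show.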
